A study of Mus musculus with 28 samples.

Results

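The response to 45 min of lipopolysaccharide (LPS, a bacterial cell wall component) was measured in macrophages that carried hairpins against Set1a and Set1b, with 1 LPS library and 1 untreated library. These were chosen by their labels and are 2 of the 28 libraries of the series. All cells were macrophages grown from FVB/Hsd bone marrow, at day 7 of differentiation, infected with a retrovirus and selected with puromycin. The LPS cells received 10 ng/ml for 45 min and the untreated cells none. Newly made RNA was labelled with 4-thiouridine (4sU) for the last 45 min before harvest, which is as long as the LPS exposure, and the libraries kept strand. The time is that of the sample titles, because the general treatment text of the labels speaks of 4 h.

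The same table holds the matched LPS and untreated libraries of cells with a scrambled hairpin. A further 4 LPS and untreated pairs at 45 min came from 2 other tables. They are Wdr82 hairpin sh1137 in unstranded libraries, a Pnuts hairpin in stranded libraries, a scrambled hairpin beside the Pnuts hairpin, and an empty vector (LMP) beside sh1137. The sources used here give neither the hairpin sequences nor the number of mice or clones. Each condition was a single library, so a difference within the pair has no replicate check and no p-value.

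Set1a and Set1b (gene symbols Setd1a and Setd1b) are the catalytic subunits of the complexes that place most methyl groups on lysine 4 of histone H3 at active promoters. Wdr82 is a subunit of the same complexes. LPS binds the receptor Tlr4 on macrophages and, through the adaptors Myd88 and Ticam1, activates NF-κB and the MAP kinases. The first genes to be transcribed are the immediate early transcription factors, the chemokines and cytokines, and the inhibitors that shut the signal down again. Interferon response genes follow later, after interferon beta has been secreted.

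Promoters of the 6 genes with the highest LPS ratios that had a window are shown first, to set them beside the binding motifs of factors that LPS activates. Each window runs from 250 bases before the RefSeq start site to 50 after it, in GRCm38.p6. The windows of Cxcl1 at chr5:90890995-90891294, Cxcl2 at chr5:90903649-90903948, Ptgs2 at chr1:150099781-150100080 and Lif at chr11:4257318-4257617 are on the plus strand. Those of Ccrl2 at chr9:111057469-111057768 and Tnfaip3 at chr10:19015361-19015660 are on the minus strand, each the first listed of several. Capitals mark matches to the NF-κB consensus or to the AP-1 motif TGANTCA, searched on both strands like the other motifs.
Cxcl1: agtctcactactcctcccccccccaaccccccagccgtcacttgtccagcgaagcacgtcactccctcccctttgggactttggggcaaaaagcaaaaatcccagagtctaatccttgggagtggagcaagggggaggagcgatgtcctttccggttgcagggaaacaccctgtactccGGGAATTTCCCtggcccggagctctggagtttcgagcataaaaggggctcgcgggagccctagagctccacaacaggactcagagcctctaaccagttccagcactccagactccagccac
Cxcl2: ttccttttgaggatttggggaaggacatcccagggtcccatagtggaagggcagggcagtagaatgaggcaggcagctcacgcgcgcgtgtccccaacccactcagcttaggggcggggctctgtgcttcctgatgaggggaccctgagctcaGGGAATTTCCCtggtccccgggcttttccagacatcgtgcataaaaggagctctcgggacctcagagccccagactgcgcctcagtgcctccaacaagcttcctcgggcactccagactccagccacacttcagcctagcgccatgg
Ccrl2: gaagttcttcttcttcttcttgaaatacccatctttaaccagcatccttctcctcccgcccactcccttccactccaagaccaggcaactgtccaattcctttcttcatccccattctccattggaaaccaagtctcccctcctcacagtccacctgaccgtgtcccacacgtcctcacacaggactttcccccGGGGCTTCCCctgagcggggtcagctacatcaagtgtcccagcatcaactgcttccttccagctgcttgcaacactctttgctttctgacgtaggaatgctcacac
Tnfaip3: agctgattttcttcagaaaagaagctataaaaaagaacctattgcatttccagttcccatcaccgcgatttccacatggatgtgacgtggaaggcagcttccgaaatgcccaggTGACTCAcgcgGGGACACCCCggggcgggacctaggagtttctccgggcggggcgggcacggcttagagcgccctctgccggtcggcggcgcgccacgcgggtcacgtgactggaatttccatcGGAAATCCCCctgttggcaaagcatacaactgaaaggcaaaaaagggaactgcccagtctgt
Ptgs2: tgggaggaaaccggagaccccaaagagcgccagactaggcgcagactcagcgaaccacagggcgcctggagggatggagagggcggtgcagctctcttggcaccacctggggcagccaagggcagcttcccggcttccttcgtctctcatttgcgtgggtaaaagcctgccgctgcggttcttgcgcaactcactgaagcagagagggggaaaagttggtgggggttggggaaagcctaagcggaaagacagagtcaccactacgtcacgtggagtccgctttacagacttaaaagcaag
Lif: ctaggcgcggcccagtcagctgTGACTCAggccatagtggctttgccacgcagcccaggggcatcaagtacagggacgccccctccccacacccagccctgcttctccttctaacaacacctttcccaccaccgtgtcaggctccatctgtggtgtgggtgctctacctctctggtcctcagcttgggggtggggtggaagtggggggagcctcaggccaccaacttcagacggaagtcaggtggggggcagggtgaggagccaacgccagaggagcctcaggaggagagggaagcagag
Cxcl1 held the NF-κB match GGGAATTTCC at -71 relative to the start site and Cxcl2 the same letters at -97, each overlapping a match on the other strand. Ccrl2 held 1 match, GGGGCTTCCC at -56. Tnfaip3 held 2 separate NF-κB matches, at -125 and -12, and the AP-1 match TGACTCA at -136. Lif held no NF-κB match and 1 AP-1 match, TGACTCA at -228, and no letters of the Ptgs2 window matched the motifs searched.

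The windows of Csf2 at chr11:54249850-54250149 and Il1a at chr2:129309923-129310222, both on the minus strand, are shown because these cytokine genes had LPS ratios above those of scrambled cells by 2.84 and 2.32 on the log2(FPKM + 1) scale. They were chosen after their values were seen.
Csf2: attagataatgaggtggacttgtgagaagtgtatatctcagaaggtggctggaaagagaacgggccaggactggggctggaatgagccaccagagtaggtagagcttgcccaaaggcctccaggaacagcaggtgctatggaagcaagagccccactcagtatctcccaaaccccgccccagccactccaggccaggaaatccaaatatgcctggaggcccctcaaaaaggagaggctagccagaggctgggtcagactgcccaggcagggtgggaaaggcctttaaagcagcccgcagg
Il1a: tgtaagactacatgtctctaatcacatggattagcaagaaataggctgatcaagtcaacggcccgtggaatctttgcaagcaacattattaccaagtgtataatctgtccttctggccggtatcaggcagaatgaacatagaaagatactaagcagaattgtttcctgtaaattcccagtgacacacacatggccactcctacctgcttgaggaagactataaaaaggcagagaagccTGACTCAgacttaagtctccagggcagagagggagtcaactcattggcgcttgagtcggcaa
Il1a held an AP-1 match at -12, and no letters of the Csf2 window matched the motifs searched. Not every gene had a window, and some had several. Of 503 windows of named genes called 2-fold higher with LPS, 12.9% held the NF-κB consensus. The share was 18.7% of 75 windows of genes at least 8-fold higher and 3.33% of 180 windows of genes called lower, against 5.21% of windows of all named genes tested and 4.51% of all windows in the table. TGANTCA was held by 9.94%, 18.7% and 3.89% of the same 3 groups, against 5.10% of windows of the genes tested and 7.81% of all windows. The cyclic AMP response element TGACGTCA was held by 3.98%, 8% and 1.67%, against 3.06% and 1.79%. The serum response CArG box was held by 2.19%, 6.67% and 1.11%, against 1.24% and 1.63%. These are matches of letters, not measured binding sites.

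Levels are the FPKM that the authors deposited, which scale fragments to transcript length and library size, each with a lower and an upper bound. Ratios are log2((FPKM + 1)/(FPKM + 1)), LPS over untreated, and a gene was called at a ratio of 2-fold or more. Of 13282 genes tested, 820 (6.17%) were called higher and 509 (3.83%) lower with LPS. The deposited bounds of the LPS and untreated libraries did not overlap for 305 higher genes (2.3%) and 83 lower genes (0.625%). Leaving out small RNA, pseudogene, clone and predicted gene names, 493 of 10134 genes were higher and 181 lower. The median log2 ratio of all genes tested was 0.06. By the same rule 8.71% of genes were higher and 4.27% lower with the Wdr82 hairpin, and 8.41% and 4.19% with the Pnuts hairpin. In the controls these shares were 5.56% and 3.46% in scrambled cells, 5.68% and 3.33% in the scrambled cells of the Pnuts table, and 5.96% and 4.6% with the empty vector.

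Depth cannot be read from these values, but low genes show what a single fragment was worth. Among 1660 genes under 0.3 FPKM in the pair, the most frequent ratio of the LPS to the untreated value was 1.53, against 1.22 in the scrambled pair and 1.17 to 1.83 over the other 5 pairs. The part of this difference in the results was not tested. The macrophage markers were all present, with a summed level of 12234 FPKM in LPS and 8506 FPKM in untreated cells. Lyz2, lysozyme, stood at 6177 and 4569 FPKM, and Csf1r, the receptor of the macrophage growth factor, at 401.5 and 248.0 FPKM. Summed over their lists, neutrophil markers reached 39.5 and 33.3 FPKM, lymphocyte markers 10.8 and 12.7, stromal and endothelial markers 6.52 and 4.40, dendritic cell markers 4.82 and 2.34, and mast cell and basophil markers 2.31 and 1.27, in LPS and untreated cells. Erythroid markers summed to 0.05 and 0.10 FPKM, and Cd3e, Nkg7, Hbb-b1 and Col3a1 were listed at 0 in both libraries. In bulk RNA, fewer cells of a type and less RNA per cell cannot be told apart.

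The targeted genes were checked first. Setd1a had 13.5 FPKM in LPS and 14.8 FPKM in untreated hairpin cells, against 18.1 and 16.1 FPKM in scrambled cells. Setd1b had 6.70 and 11.8 FPKM in hairpin cells, against 10.5 and 11.3 FPKM in scrambled cells. Neither gene was 2-fold lower than in scrambled cells in either condition, so the labelled knockdown is not seen as a 2-fold loss in this newly made RNA, and both loci are shared with other annotated genes. LPS changed no subunit of the Set1 complexes by 2-fold. The 10 subunits had log2 ratios from -0.73 for Setd1b to 0.15 for Cxxc1, the subunit that reads CpG DNA, with a median of -0.10 in hairpin cells and 0.01 in scrambled cells. The ratio was higher in hairpin than in scrambled cells for 1 of the 10, against 5009 of 9818 named genes tested in both. Over all 3 scrambled and empty vector pairs the ratio of Setd1b ran from -0.67 to -0.09, so its -0.73 lay just below that range. That of Setd1a, -0.13, lay below a range of 0.09 to 0.18.

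Chemokine, NF-κB feedback and cytokine genes had the highest ratios. Cxcl1, a chemokine that attracts neutrophils (mm9 chr5:91320267-91322141), had 2957 FPKM in LPS cells (bounds 68.7 to 6568) and 7.23 FPKM in untreated cells (bounds 3.07 to 11.4), a log2 ratio of 8.49. Ccrl2, a chemokine receptor-like protein (mm9 chr9:110957339-110959774), had 903.3 FPKM with LPS and 12.02 FPKM untreated, a log2 ratio of 6.12. Cxcl2, the neighbour and relative of Cxcl1 (mm9 chr5:91332897-91334935), had 5193 and 77.7 FPKM, a log2 ratio of 6.04. All 3 were far higher in the LPS library, but the bounds of Cxcl2 with LPS spanned 0.33 to 17911 FPKM and so overlapped the untreated ones.

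Tnfaip3 encodes A20, an enzyme that edits ubiquitin chains and limits NF-κB (mm9 chr10:18720716-18735463). It had 2306 FPKM in LPS cells and 40.4 FPKM in untreated cells, a log2 ratio of 5.80. Nfkbiz, a nuclear IκB protein that assists NF-κB at secondary genes, had 1476 and 33.1 FPKM, a ratio of 5.44. Ptgs2, the inducible cyclooxygenase of prostaglandin synthesis, had 245.1 and 4.75 FPKM, a ratio of 5.42. The lower bounds of Tnfaip3 and Nfkbiz with LPS reached 0 and 0.02 FPKM, whereas those of Ptgs2 (80.4 to 409.8 FPKM with LPS, 2.85 to 6.65 FPKM untreated) did not overlap.

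Further down the order came the secreted and surface proteins of the activated macrophage. Lif, a cytokine of the interleukin 6 family, had 59.3 FPKM with LPS and 0.54 FPKM untreated (log2 ratio 5.29). Il1b, interleukin 1 beta, had 312.7 and 7.78 FPKM (5.16). Cd83, a surface marker of activation, had 481.0 and 12.6 FPKM (5.15). The values of these 3 were apart beyond their bounds in each case. Socs3, an inhibitor of cytokine receptor signalling, had 673.2 and 18.1 FPKM (5.15), and Irg1, the enzyme that makes itaconate, had 527.5 and 16.02 FPKM (4.96).

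Tnf had the highest LPS level of the 20, 7436 FPKM against 243.1 FPKM in untreated cells (log2 ratio 4.93), with a lower bound of 0 in the LPS library. Sele, the endothelial adhesion molecule E-selectin, had 25.8 FPKM with LPS and was listed at 0 in untreated cells, beside the sums of 6.52 and 4.40 FPKM for stromal and endothelial markers, whose part was not tested. Csf2, the growth factor GM-CSF, had 23.5 FPKM with LPS and was also listed at 0 in untreated cells. The remaining 6 were Apold1, the adhesion molecule Icam1, the TNF family ligand Tnfsf9, the small Maf protein Maff, and the zinc finger factors Egr1 and Egr2, with log2 ratios from 4.32 to 4.53. For 16 of the 20 the deposited bounds were apart, and 15 had a locus shared with no other gene. The 20 highest genes were all at least 2-fold higher in each of the other 5 pairs as well.

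**Figure D1:**
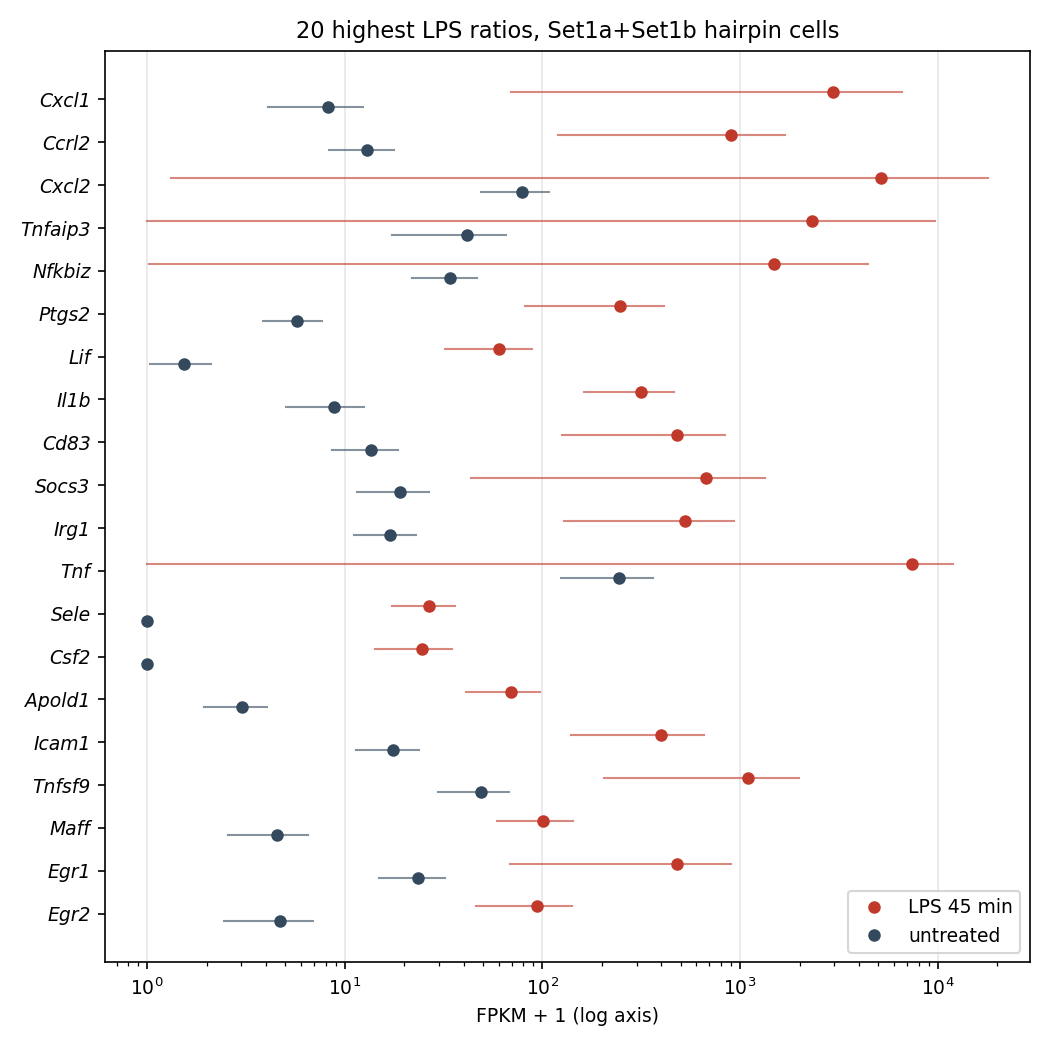
FPKM + 1 on a log axis for the 20 genes with the highest log2 LPS ratio in Set1a+Set1b hairpin cells, LPS 45 min above untreated for each gene. Points are the deposited values and lines the deposited bounds. LPS values lie above untreated values for every gene, while the bounds of Cxcl2, Tnfaip3, Nfkbiz and Tnf overlap.

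Most immediate early transcription factors were higher with LPS. Of 35 listed, 32 passed the filter on low values. Of these, 23 (71.9%) were called higher and none lower, with a median log2 ratio of 1.72 against 0.06 over all genes. Over all named genes tested 4.86% were higher and 1.79% lower, which is the background for the lists below as well. The lists were chosen with earlier results of these data known. The AP-1 subunits Junb (1109 FPKM with LPS, 94.2 FPKM untreated, log2 ratio 3.54), Fos (283.2 and 31.8, 3.11) and Jun (log2 ratio 1.27) were called. Atf3, a repressor of inflammatory genes, had 1587 and 190.8 FPKM (3.05). Klf10 was listed at 0 in both hairpin libraries. Srf, the serum response factor itself, was level at 10.6 FPKM in both libraries, and Cebpd had 24.9 and 33.0 FPKM (-0.39).

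Of the 20 subunits and regulators of NF-κB, 16 (80%, against 4.86% of all named genes tested) were called higher and none lower, with a median of 2.15. The inhibitors led: Nfkbia, IκB alpha, had 3545 FPKM with LPS and 178.0 FPKM untreated (log2 ratio 4.31), and Nfkbie, IκB epsilon, 83.7 and 7.40 FPKM (3.33). Among the subunits, Relb (59.97 and 10.2 FPKM, 2.44), Rel (129.6 and 32.4, 1.97), Nfkb2 (37.6 and 10.9, 1.70) and Rela (66.0 and 26.8, 1.27) were called. Nfkb1 had 58.5 and 34.9 FPKM (0.73) and was not called.

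Phosphatases, RNA decay factors and other feedback genes gave 23 (76.7%) higher and 1 (3.33%) lower of 30 tested, with a median of 2.14. The shares over all named genes tested were 4.86% and 1.79%. Dusp1, which dephosphorylates p38 and JNK, had 1163 FPKM with LPS and 59.7 FPKM untreated (log2 ratio 4.26). Zfp36, tristetraprolin, which destroys cytokine mRNAs, had 2181 and 120.6 FPKM (4.17). The lower gene was Dusp6, the phosphatase of ERK, with 57.3 and 156.1 FPKM (-1.43). Phosphatases of the same family thus lay on both sides.

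Of 23 chemokines, 18 were tested and 13 (72.2%, against 4.86% of all named genes tested) called higher, none lower. Ccl3 (3317 FPKM with LPS and 602.1 FPKM untreated, log2 ratio 2.46), Ccl4 (4515 and 721.8, 2.64) and Ccl2 (3845 and 1175, 1.71) already had high levels in untreated cells. Of 29 cytokines and growth factors, 27 were tested and 18 (66.7%) called higher. Ifnb1, interferon beta, had 4.50 FPKM with LPS and was listed at 0 untreated, and Il23a had 4.21 FPKM and was listed at 0. Il12b reached 2.55 FPKM and Il6 2.15 FPKM with LPS, against 0.10 and 0.76 FPKM untreated, so these cytokines of the later response were still low at 45 min.

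Inflammatory effectors had the highest median of the lists, 2.47, with 42 (87.5%) called higher and none lower of 48 tested. Over all named genes tested the share called higher was 4.86%. Clec4e, the receptor Mincle, had 1143 FPKM with LPS and 93.4 FPKM untreated (log2 ratio 3.60), and Nlrp3, the inflammasome sensor, 555.8 and 84.9 FPKM (2.70). Nos2, the inducible nitric oxide synthase, was under the filter with 0.59 and 0.36 FPKM.

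**Figure D2:**
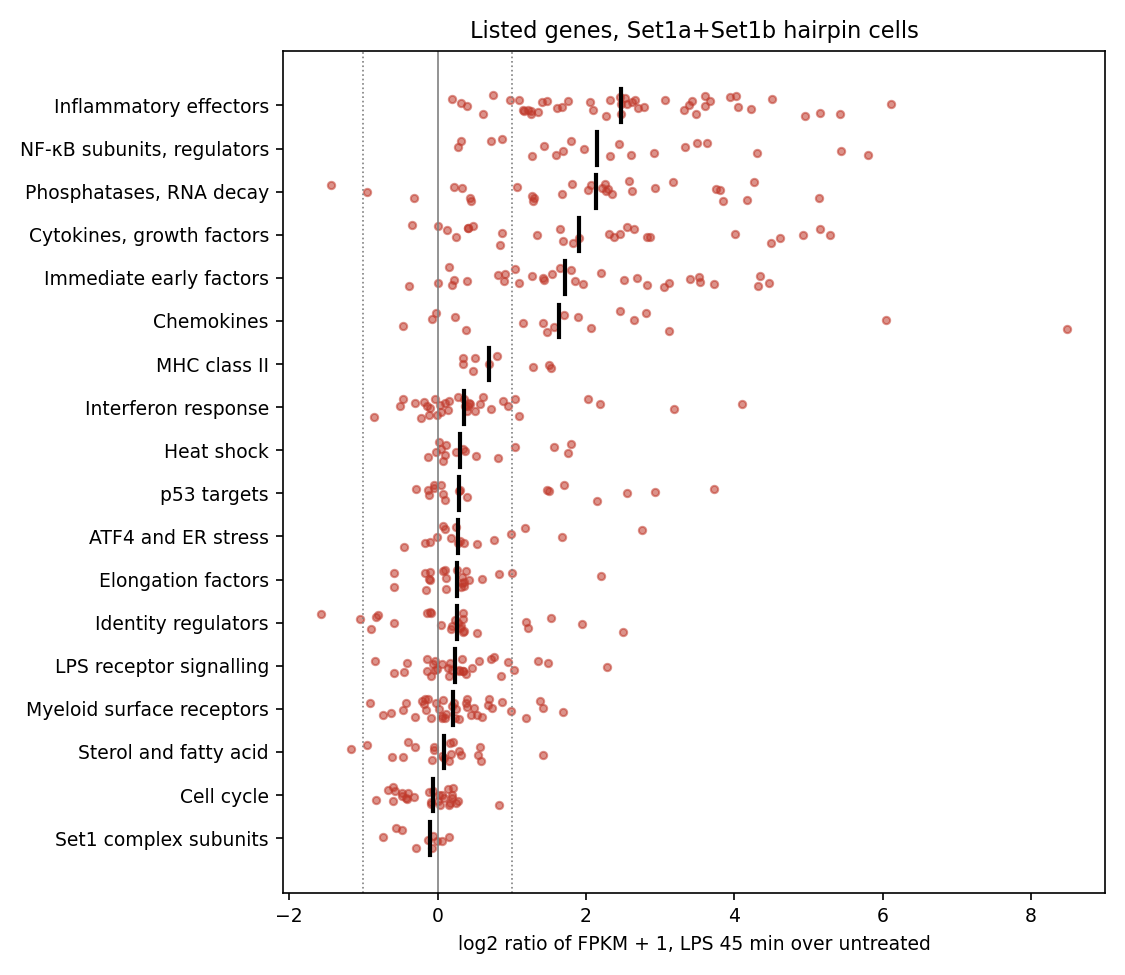
log2 ratio of FPKM + 1, LPS 45 min over untreated, of each tested member of 18 gene lists in Set1a+Set1b hairpin cells. Points are genes, black bars medians and dotted lines 2-fold. Medians run from 2.47 for inflammatory effectors to -0.10 for the subunits of the Set1 complexes, and 6 lists have medians above 1.

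Genes that receive the signal had ratios nearer to those of all genes. Of 32 members of LPS receptor signalling, 4 (12.5%, against 4.86% of all named genes tested) were called higher and none lower, with a median of 0.24. The 4 were the co-receptor Cd14 (1524 FPKM with LPS, 311.3 FPKM untreated, log2 ratio 2.29) and the kinases Irak2 (1.49), Mapkapk2 (1.35) and Map3k8 (1.03). Tlr4 itself had 47.0 and 85.4 FPKM (-0.85) and was not called. Interferon response genes gave 6 (17.1%) higher and none lower of 35, with a median of 0.36. They were led by Irf1, a factor that NF-κB also drives (1007 FPKM with LPS, 57.9 FPKM untreated, 4.10), whereas Ifit1 had 10.3 and 7.74 FPKM (0.37), Mx1 5.99 and 7.62 FPKM (-0.30) and Isg15 16.2 and 11.1 FPKM (0.51).

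Regulators of macrophage identity went both ways, with 5 (19.2%) higher and 2 (7.69%) lower of 26. The shares were 4.86% and 1.79% of all named genes tested, and 6.17% and 3.83% with all names kept. Id3 and Id2, inhibitors of basic helix-loop-helix factors, had log2 ratios of 2.49 and 1.21, and their relative Id1 had 9.69 FPKM with LPS and 30.8 FPKM untreated (-1.57). Hhex, a homeobox repressor, had 13.2 and 28.3 FPKM (-1.04). Maf (64.3 and 112.5 FPKM, -0.80) and Irf8 (38.7 and 69.9, -0.84) were not called. Of 40 myeloid surface receptors 4 (10%) were higher, against the same 4.86% of all named genes tested. Among them were the prostaglandin E2 receptor Ptger4 (49.4 and 14.6 FPKM, 1.69) and the amplifying receptor Trem1 (29.1 and 10.2 FPKM, 1.42). Cxcr4 had 129.7 and 244.5 FPKM (-0.91) and was not called.

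Of 23 genes of the elongation machinery 2 (8.70%) were called, both higher, with a median of 0.26. Over all named genes tested 4.86% were higher and 1.79% lower. Ell2, a subunit of the super elongation complex, had 77.9 FPKM with LPS and 16.2 FPKM untreated (log2 ratio 2.20), and Hexim1, the inhibitor of P-TEFb, 41.0 and 19.9 FPKM (1.00). Hexim1 sat just inside the call and Ttpal (54.2 and 26.6 FPKM) just outside. Ranbp6 (5.31 and 11.6 FPKM) was just inside on the lower side and Gpank1 (2.99 and 6.98 FPKM) just outside. Heat shock genes gave 4 of 16 higher, ATF4 and endoplasmic reticulum stress genes 3 of 17, and p53 targets 7 of 18, with none lower in these lists. The p53 targets called were Btg2, Plk2, Gdf15, Pmaip1, Mdm2, Cdkn1a and Fas, from 3.72 for Btg2 to 1.48 for Fas. Of 9 MHC class II genes 3 were called, H2-Ab1, Cd74 and H2-Aa, with ratios of 1.52, 1.51 and 1.28, and the loci of H2-Ab1 and H2-Aa overlap. No cell cycle gene of 29 was called in either direction, and sterol and fatty acid genes gave 1 higher (Insig1, 1.42) and 1 lower (Lss, -1.16) of 21. None of these list counts was tested against the shares over all genes.

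Lower genes had smaller ratios than higher ones. Txnip, which binds thioredoxin and restrains glucose uptake (mm9 chr3:96359688-96370724), had 177.9 FPKM in LPS cells (bounds 71.4 to 284.8) and 1004 FPKM in untreated cells (bounds 17.7 to 2265), a log2 ratio of -2.49. It was the lowest ratio of the named genes. Next came Arhgap27 (-2.14) and Serpina3g (-2.06), both 2-fold lower in this pair only of the 6. Of the 15 lowest, 9 were 2-fold lower in all 6 pairs and 10 had bounds apart. Med18, a Mediator subunit, had 4.36 and 16.1 FPKM (-1.67), Casp2, a caspase, 9.26 and 32.0 FPKM (-1.69), and Gna11, a G protein alpha subunit, 3.63 and 12.9 FPKM (-1.59). The bounds of Casp2 and Med18 were apart. Of the 15 lowest, 5 were zinc finger genes named Zfp with a number: Zfp157 (-1.99), Zfp551 (-1.95), Zfp60 (-1.69), Zfp952 (-1.67) and Zfp553 (-1.66). Zfp551 was 2-fold lower in 2 of the 6 pairs and its bounds overlapped.

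That group was then counted, after its values had been seen. Among 292 tested genes named Zfp with a number, 48 (16.4%) were 2-fold lower and 9 (3.08%) higher. Most encode DNA-binding proteins, and the median log2 ratio of the group was -0.50. In scrambled cells 51 of the 287 tested in both were lower and the median was -0.42. Cytoplasmic ribosomal protein genes gave 4 (5.13%) higher and none lower of 78, with a median of 0.25. Over all named genes tested in hairpin cells 4.86% were higher and 1.79% lower, with a median of 0.07.

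Called genes were short. Among named genes with a locus to themselves, the median locus length was 12.6 kb for 341 higher genes and 11.1 kb for 112 lower genes, against 19.6 kb for all 6079 tested. Of genes under 5 kb, 88 of 814 (10.8%) were higher, whereas of genes over 100 kb 7 of 458 (1.53%) were higher and none lower. The median log2 ratio over genes longer than 100 kb was 0.24.

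**Figure D3:**
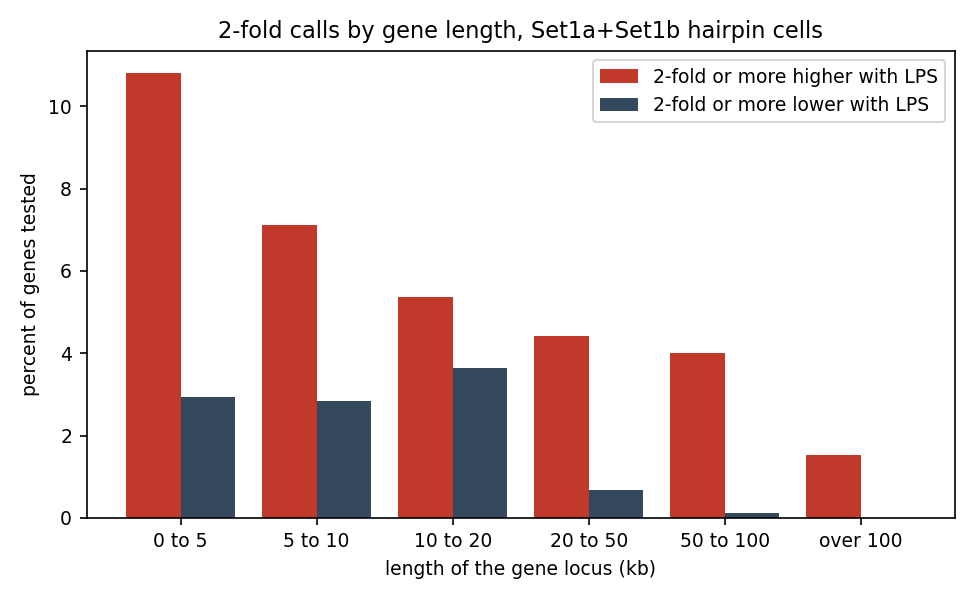
Percent of named genes tested that were 2-fold or more higher or lower with LPS in Set1a+Set1b hairpin cells, by length of the locus in kb. The share of higher genes falls from 10.8% under 5 kb to 1.53% over 100 kb.

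The calls were set beside those of the other 45 min pairs. Over 9541 named genes tested in all 6 pairs, 440 were higher here, and 257 of them (58.4%) were higher in all 6. Of 173 lower genes, 23 (13.3%) were lower in all 6. Those 23 included Txnip, Id1, Thbd, the thrombin receptor thrombomodulin (4.31 FPKM with LPS, 12.6 FPKM untreated), Dok1, an adaptor that dampens kinase signalling (14.7 and 34.7 FPKM), and Cd300lb, a myeloid receptor (74.8 and 177.1 FPKM). Of the 9541 genes, 15 were higher and 31 lower in no pair but this one. The same count was not made for each of the other pairs, so it does not set this pair apart. The limma fit over the 3 control pairs (the 2 scrambled pairs and the empty vector) called all of the 20 highest genes and 11 of the 15 lowest, at adjusted p under 0.05. It called 1156 genes higher (7.68%) and 650 lower (4.32%) in all, but none once any of the 3 control pairs was left out.

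Size was compared on genes chosen in the other 2 control pairs, the Pnuts table's scrambled cells and the empty vector, so that neither arm of the Set1a+Set1b table took part in the choice. For 308 genes at least 2-fold higher in both, the median log2 ratio was 1.91 in Set1a+Set1b hairpin cells and 1.73 in scrambled cells. The hairpin ratio was above the scrambled one for 215 of the 308 (69.8%). It was higher by 2-fold or more for 18 and lower by that much for 1. For 116 genes at least 4-fold higher the medians were 3.13 and 2.84, and for 69 genes at least 2-fold lower they were -1.12 and -1.16. Over the 308 genes the median was 2.16 with the Wdr82 hairpin and 2.16 with the Pnuts hairpin, against 1.67 and 1.93 in the scrambled cells of the Pnuts table and the empty vector. The last 2 medians are set in part by the choice of genes in those pairs. Genes are not replicates, and each arm is 1 pair of libraries. Summed macrophage markers were 12234 and 8506 FPKM in LPS and untreated hairpin cells, against 7159 and 5282 FPKM in scrambled cells, and neutrophil markers 39.5 and 33.3 FPKM against 11.5 and 8.08 FPKM; their part was not tested.

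By list, inflammatory effectors had a median of 2.47 over 48 genes in hairpin cells and 2.01 in scrambled cells over the 47 tested in both, with the higher ratio in hairpin cells for 38 of the 47. Cytokines and growth factors were higher in hairpin cells for 21 of 26 genes and NF-κB genes for 16 of 20. Chemokines were higher for 5 of 14. These list counts used only the scrambled pair of this table, and the other 2 control pairs were not counted by list. Against all 3 control pairs single members differed. Lif, with a ratio of 5.29, lay above the control range of 3.71 to 4.38. Ptgs2, at 5.42, and Il1b, at 5.16, lay within control ranges of 4.46 to 5.79 and 4.17 to 6.64. Over all 12625 genes tested in both pairs, the hairpin ratio was the higher one for 6265.

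Single genes stood farther apart. Of the 12625 genes, 270 (2.14%) had an LPS ratio at least 2-fold higher in hairpin than in scrambled cells and 339 (2.69%) at least 2-fold lower. Without small RNA, clone and predicted names these were 72 and 42 of 9818. Among the 8 largest differences of named genes the highest was 8.46, for a gene not described here. Csf2 ranked 5 among them, with 2.84. Csf2 (mm9 chr11:54060773-54067997) reached 23.5 FPKM in LPS-treated hairpin cells (bounds 13.2 to 33.9), against 2.43 FPKM in LPS-treated scrambled cells (bounds 0.80 to 4.07), and was listed at 0 in the untreated libraries of both. Its LPS level was 27.2 FPKM with the Wdr82 hairpin and 2.11 FPKM with the Pnuts hairpin, against 2.90 and 2.76 FPKM in the scrambled cells of the Pnuts table and the empty vector. The level was thus high in the Set1a+Set1b and Wdr82 hairpin libraries and low in the other 4, across tables that were scaled separately.

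Il1a, interleukin 1 alpha (mm9 chr2:129123106-129135708), had 28.9 FPKM in LPS-treated and 0.86 FPKM in untreated hairpin cells, against 6.98 and 1.48 FPKM in scrambled cells. Its log2 ratio was 4.01 in Set1a+Set1b hairpin cells, 5.11 with the Wdr82 hairpin and 3.56 with the Pnuts hairpin, against 1.68, 2.47 and 3.67 in the 3 control pairs. The Set1a+Set1b value lay above all 3 controls, but by less than 2-fold above the highest. Lif had ratios of 5.29, 4.92 and 4.78 in the same 3 hairpin pairs, against 3.84, 3.71 and 4.38 in the controls. Sele reached 25.8 FPKM with LPS in Set1a+Set1b hairpin cells, 22.9 with the Wdr82 hairpin and 9.06 with the Pnuts hairpin, against 7.41, 5.71 and 8.78 FPKM in the controls.

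The ratios of Egr1 and Cxcl10 were lower in hairpin cells. Egr1 had 476.1 FPKM in LPS-treated and 22.5 FPKM in untreated Set1a+Set1b hairpin cells, against 409.8 and 9.21 FPKM in scrambled cells. Its log2 ratio was 4.34, below the range of 5.33 to 6.94 over the other 5 pairs. Cxcl10, a chemokine induced by interferon, had 199.3 and 22.1 FPKM, against 164.2 and 9.75 FPKM in scrambled cells, with ratios of 3.11 and 3.94. For both genes the LPS level was similar or higher in hairpin cells and the untreated level was more than 2-fold higher.

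**Figure D4:**
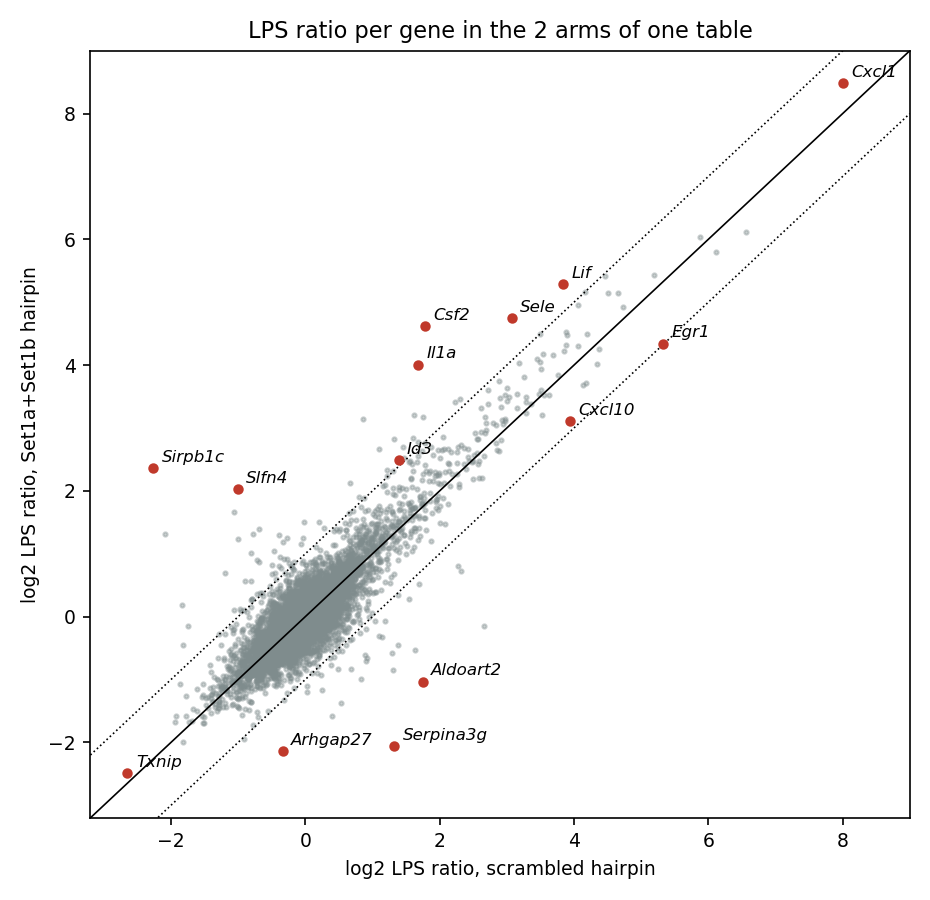
log2 LPS ratio in Set1a+Set1b hairpin cells (vertical) and scrambled cells (horizontal) for 9818 named genes tested in both, of which 1 lies outside the axes. The solid line marks equal ratios and dotted lines a 2-fold difference. Csf2 and Il1a lie above the upper dotted line and Arhgap27 and Serpina3g below the lower one, while Cxcl1 and Txnip lie between them.

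No named gene passed the test of the difference. The control pairs differed in vector, scrambled hairpin or empty, and in library type, stranded or unstranded. The part of this in their spread was not tested. The limma fit set the LPS ratio of the Set1a+Set1b hairpin pair against those of the 3 control pairs, with 2 residual degrees of freedom. The fit assumed the hairpin pair to vary like the controls. It called 61 of 15047 genes, 28 higher (0.186%) and 33 lower (0.219%), and all 61 had small RNA, clone or predicted names. Of these, 59 were listed at 0 in 1 of the 2 hairpin libraries and 57 at 0 in all 6 control libraries. With such names left out, limma called 0 of 10562 genes, and 440 had an unadjusted p under 0.05. Csf2 came nearest, with a difference of 2.73 ± 0.20 (SE) on the log2(FPKM + 1) scale and an adjusted p of 0.0854 by limma over all genes and 0.191 without such names. Over the alternatives its adjusted p ran from 0.0682 to 0.507. The adjusted p was 0.661 for Sele and 0.994 for Il1a, Lif, Egr1 and Cxcl10.

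Beyond all 3 control pairs by 2-fold or more lay 11 named genes above and 5 below of 9632, against 3 to 13 above and 4 to 8 below when each control pair was set against the other 3 of these 4 pairs. Those above included Csf2, Sele, Serpinb2, an inhibitor of plasminogen activators (37.5 FPKM with LPS and 2.49 FPKM untreated), Orai2, a calcium channel subunit (55.6 and 7.21 FPKM), and Id3, all named here after their values were seen. Id3 had 35.3 and 5.45 FPKM in hairpin cells, against 58.9 and 21.9 FPKM in scrambled cells, so its higher ratio stood beside lower levels in both libraries. The other hairpins reached as far for some of these genes. The log2 ratio of Orai2 was 2.78 with the Set1a+Set1b hairpin, 3.04 with the Wdr82 hairpin and 2.05 with the Pnuts hairpin, against 1.42 to 1.68 in the controls. That of Id3 was 2.49, 1.26 and 3.01 in the same hairpin pairs, against 1.14 to 1.39, and that of Serpinb2 3.47, 2.55 and 3.14, against 1.52 to 2.30. Arhgap27, a GTPase-activating protein, lay below, with 9.30 FPKM in LPS-treated and 44.5 FPKM in untreated hairpin cells, against 13.1 and 16.9 FPKM in scrambled cells.

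**Figure D5:**
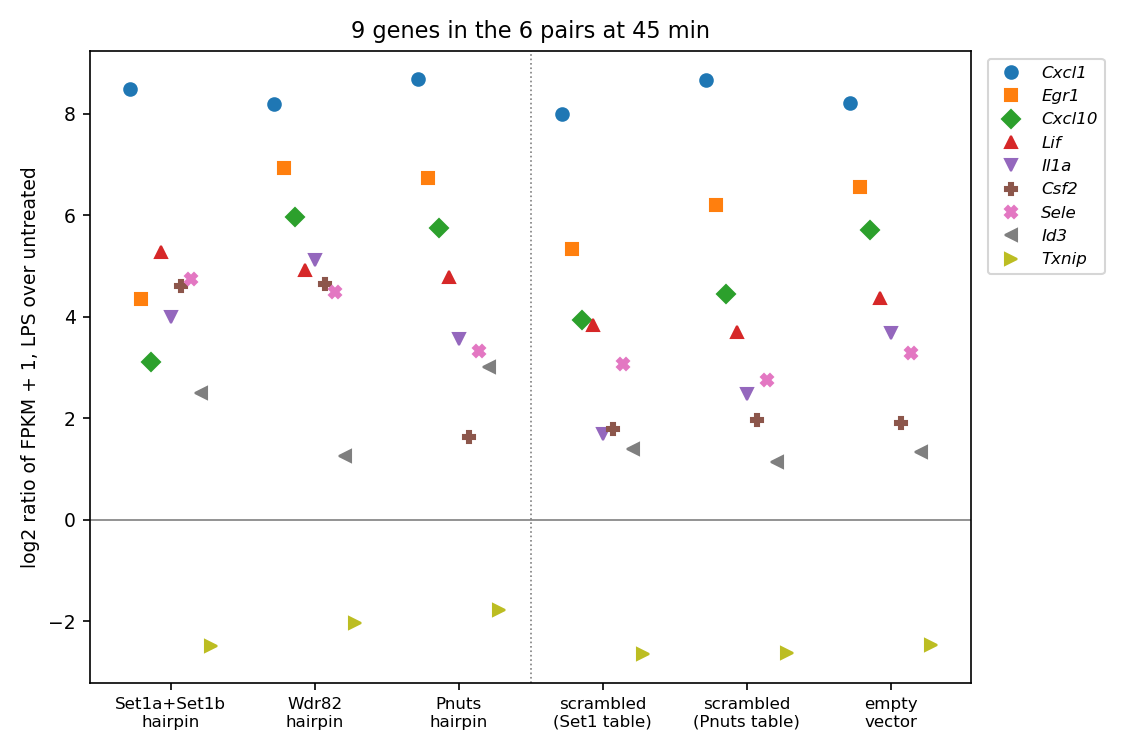
log2 ratio of FPKM + 1, LPS 45 min over untreated, of 9 genes in the 6 pairs, hairpin pairs left of the dotted line and control pairs right of it. Csf2 and Sele are high with the Set1a+Set1b and Wdr82 hairpins, Egr1 is lowest with the Set1a+Set1b hairpin at 4.34, and Cxcl1 and Txnip keep their places in all pairs.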

How the data were processed

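The authors deposited FPKM values per gene with lower and upper bounds and a status. Per the submitters' processing notes the tools were TopHat 1.3.1, Cufflinks 2.1.1 and Cuffdiff 2.1.1 with mm9; the sources used here name no annotation, no scaling of libraries and no level for the bounds. No counts were given, so depth is unknown and no counting interval was computed. Of 6 deposited tables, 3 were used, with 12 libraries in 6 pairs.

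Ratios were taken within a table, with a pseudocount of 1 FPKM, which understates the change of low genes. A gene was tested at 1 FPKM or more in either library and status OK in both. limma 3.58.1 (R) fitted the within-table log2 ratios of the hairpin pair and 3 control pairs with a trend on mean level and Benjamini-Hochberg adjustment. The fit was run on simulated ratios with the same normal spread for all genes of like level, whereas the spread of the real genes varies. For the call, made ratios were read back without noise, which checks only the calculation. Loci are mm9 positions as in the tables. Promoters came from RefSeq (GRCm38.p6) and were matched by symbol for 8147 of 10134 named genes tested; Nfkbiz had none.

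Named genes were the Set1 subunits, the 20 highest and 15 lowest ratios with 5 FPKM or more and no small RNA, pseudogene, clone or predicted name, up to 6 members per list, and the 8 largest and 8 smallest differences from scrambled cells. Other list members and genes beyond the controls were chosen after their values were seen. The members and the 25 lists were chosen with earlier results of these data known. Alternatives were other pseudocounts, filters, centring, names, bounds, and leaving out a control pair. Figures and tables were made with Python 3.11.15.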

Additional observations from a re-analysis of the deposited data

Results flagged for a closer look

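Of 12625 genes tested in both pairs, 55 were 2-fold or more higher with LPS in Set1a+Set1b hairpin cells and 2-fold or more lower in scrambled cells, and 63 the other way round. Without small RNA, clone and predicted names these were 4 and 2 of 9818. They were Hist2h2aa1, a histone gene with log2 ratios of 1.66 and -1.07 in hairpin and scrambled cells, and 5 genes described here because they were among the 8 largest or 8 smallest differences. The difference within this table was not tested, as each arm is 1 pair of libraries. Sirpb1c, a signal-regulatory protein gene, differed by 4.63 on the log2 scale, with 10.5 FPKM in LPS-treated and 1.23 FPKM in untreated hairpin cells, against 0.83 and 7.80 FPKM in scrambled cells. Hist1h2ao, a replication-dependent histone gene, differed by 3.41, with 1.87 and 0.15 FPKM, against 0.73 and 6.37 FPKM. Slfn4, an interferon-inducible Schlafen gene, differed by 3.04, with 6.30 and 0.78 FPKM, against 9.39 and 19.8 FPKM. Serpina3g, a serine protease inhibitor, differed by -3.39, with 1.92 and 11.2 FPKM, against 1.97 and 0.18 FPKM. Aldoart2, an aldolase retrogene, differed by -2.78, with 3.59 and 8.40 FPKM, against 13.5 and 3.31 FPKM. Each of these genes has close relatives among which reads could be split, and the part of this in the values was not tested. In the limma fit against the 3 control pairs the lowest adjusted p of the 5 was 0.632, for Serpina3g.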

How the results depend on the processing

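Among 146 named genes no direction reversed with centring on the median. A pseudocount cannot reverse the direction of a ratio, so only the calls could change with it. At a pseudocount of 5 FPKM 14 fell below the 2-fold call and 1 list median did, at 0.1 FPKM 3 passed it, and with centring 4 lost it and 1 gained it. The cause was not tested for the counts that follow. Genes called lower numbered 830 at a pseudocount of 0.1 FPKM. At 5 FPKM 540 were higher and 174 lower, without small RNA, pseudogene, clone and predicted names 493 and 181, and by deposited bounds that did not overlap 305 and 83. Differences from scrambled cells numbered 143 higher and 167 lower at a pseudocount of 5 FPKM, 164 and 194 with a filter of 5 FPKM, 72 and 42 without such names, and 134 and 215 against the mean of the 3 control pairs.

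The limma count of differing genes was 17 at a pseudocount of 0.1 FPKM, 21 with a filter of 5 FPKM, 108 with no filter, of which 1 had another kind of name, and 0 without such names, an alternative chosen after seeing the data. Leaving out 1 control pair gave 0 to 66. The control response numbered 577 higher and 171 lower with no filter, 1896 and 1290 without such names, and 0 and 0 with any control pair left out, where 1 residual degree of freedom remains. Depth is unknown, and 1 library per condition limits every comparison within the pair. Libraries were paired by table and by hairpin or vector, and limma was run on the LPS to untreated ratio of each pair. The labels give no replicate numbers that could serve as a further block.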
